A study of Mus musculus with 6 samples.

Results

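The genes described here encode the coat proteins of cytosolic lipid droplets and the enzymes that build and break down the triglyceride stored in them. They were chosen by array target ID, from a list of 10 IDs, and 9 of the 10 had a row among the 30828 rows of the table: ADFP (Plin2), M6PRBP1 (Plin3), DGAT1, DGAT2, LPIN1, PNPLA2, ABHD5, LIPE and MGLL. The tenth ID, HIG2, an older name of Hilpda, had no row, but the row 2310016C08RIK carries an older name that RefSeq gives to Hilpda alone. It is given below beside the members and is not counted with them. The cells were MC38, a line of mouse colorectal cancer, in RPMI with 10% foetal calf serum. The EPA group of 3 samples had EPA (eicosapentaenoic acid, a polyunsaturated omega-3 fatty acid) in its medium at 50 µM for 24 h, as free acid, and the control group had 3 samples. Each sample was total RNA read on 1 Illumina mouse whole-genome array. The labels give no vehicle or time for the controls, and an effect of either cannot be told apart from that of EPA. They also do not say that samples came from separate cultures, so the spread behind each p-value is that of these 6 samples and may be technical.

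Cells store surplus fatty acids as triglyceride in droplets that bud from the endoplasmic reticulum, with perilipins such as Plin2 and Plin3 on their surface. Lipins dephosphorylate phosphatidate to diacylglycerol, and the acyltransferases Dgat1 and Dgat2 add the last acyl chain. Breakdown runs in the reverse order. Pnpla2 (adipose triglyceride lipase), with its co-activator Abhd5, removes the first chain, Lipe (hormone-sensitive lipase) the next, and Mgll (monoglyceride lipase) the last, while Hilpda is a small inhibitor of Pnpla2. Plin2 and Pnpla2 are known targets of fatty acid-responsive nuclear receptors, the PPARs.

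Of the 9 members, 7 lay above the background limit of 39.44 intensity units, on all 6 arrays, and were tested among 9274 genes with limma, at a Benjamini-Hochberg adjusted p of 0.05. Plin2 and Pnpla2 rose with EPA and no member fell, so 2 of 7 were called higher, where 18.4% of all genes tested were called higher and 15.6% lower, or 34% in either direction. With 7 genes tested, a count of 2 is near that background. Lipe and Mgll were below the limit on all 6 arrays. The median log2 fold change of the 7 tested members was 0.06, and that of all genes tested was 0.01. The changes that passed were small, the larger being the 1.32-fold rise of Plin2.

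**Figure D1:**
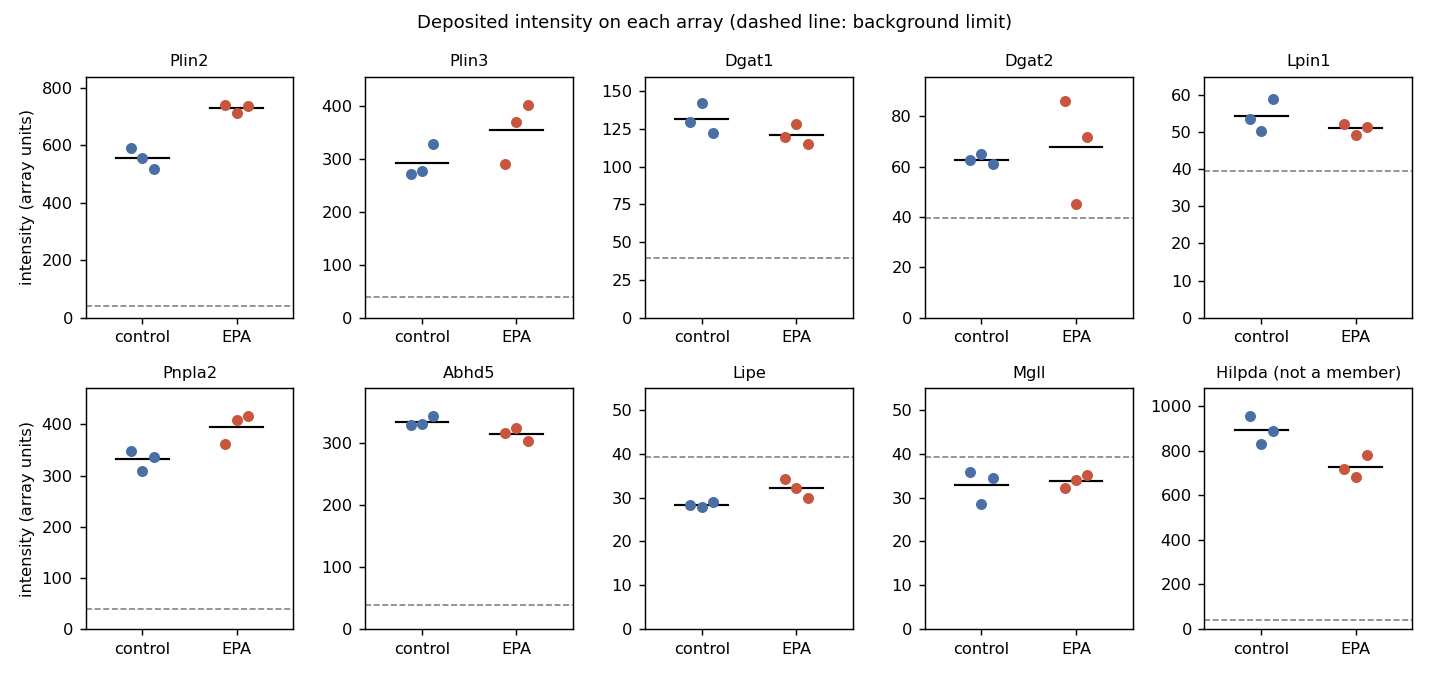
Deposited intensity (linear, array units) of each member and of Hilpda, which is not a member, on the 3 control (blue) and 3 EPA (orange) arrays. Horizontal bars are group means and the dashed line is the background limit of 39.44. The groups are clearly apart for Plin2, the EPA arrays of Dgat2 are spread from 45.0 to 86.2, and Lipe and Mgll lie below the line.

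The droplet coat gene Plin2 encodes a perilipin found on droplets of most cell types, and its protein is degraded when no droplet holds it. Its intensity was 588.6, 554.2 and 518.0 on the control arrays and 739.6, 711.4 and 737.1 on the EPA arrays. All 3 EPA arrays were higher than all 3 control arrays, as for 24.9% of genes tested (47.6% did not overlap in either direction), and the EPA values lay closer together, with the highest 1.04 times the lowest against 1.14 times in the controls. The group means were 553.6 ± 35.3 and 729.4 ± 15.6 (SD, n = 3 each), a log2 fold change of 0.40 (SE 0.0749, limma adjusted p = 0.00302). The 95% interval of the fold ran from 1.17 to 1.48. Subtracting the background level gave 1.34-fold. The call held under all 13 alternative settings, with log2 fold changes from 0.35 to 0.45 and limma adjusted p from 0.000962 to 0.042. The authors' deposited table lists Plin2 at a ratio of 1.32.

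Plin3, also called TIP47, is a perilipin that is stable in the cytosol and moves to nascent droplets. Its intensity was 270.0, 276.3 and 327.6 in control cells and 290.6, 369.1 and 401.8 with EPA. The groups overlapped, since EPA replicate 1 lay below control replicate 3. The log2 fold change was 0.27 (95% interval -0.01 to 0.55) and did not pass (limma adjusted p = 0.12). Of the alternatives, 2 gave a call: without EPA replicate 1 the log2 fold change was 0.41 (limma adjusted p = 0.0165), and with a replicate block it was 0.27 (limma adjusted p = 0.048). Whether the changes of Plin2 and Plin3 differ was not tested.

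Pnpla2 encodes the lipase that starts triglyceride breakdown. It read 348.1, 309.4 and 337.1 on the control arrays and 361.8, 408.1 and 416.6 on the EPA arrays. The EPA arrays lay above all controls, as for 24.9% of genes tested, though the lowest EPA array was close to the highest control array. The means of 331.5 ± 20.0 and 395.5 ± 29.5 (SD, n = 3 each) gave a log2 fold change of 0.25, or 1.19-fold (SE 0.0838, limma adjusted p = 0.0413). The 95% interval of the fold ran from 1.05 to 1.36. The rise is near the threshold: it passed under 5 of 13 alternative settings, and under only 1 of the 6 that left out an array, that without EPA replicate 1 (limma adjusted p = 0.0184). Its log2 fold change stayed between 0.21 and 0.32 throughout. The authors' deposited table gives Pnpla2 a ratio of 1.19.

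Abhd5, also called CGI-58, activates Pnpla2 at the droplet surface. Its values were 329.3, 331.7 and 344.5 in control cells and 317.2, 325.2 and 303.8 with EPA. All 3 EPA arrays lay below all 3 control arrays, which 22.7% of genes tested also showed. The difference was small, with a log2 fold change of -0.09 (95% interval -0.24 to 0.07), and it did not pass (limma adjusted p = 0.357). As a fold, the interval of Abhd5 ran from 0.84 to 1.05 times the control level.

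Hilpda, read by the row 2310016C08RIK, had 954.7, 829.7 and 891.6 on the control arrays and 718.6, 683.7 and 781.8 on the EPA arrays. Every EPA array was lower than every control array, as for 22.7% of genes tested. Hilpda fell by 0.29 on the log2 scale (SE 0.0838, limma adjusted p = 0.023), from 892 ± 62.5 to 728 ± 49.7 (SD, n = 3 each). The call for 2310016C08RIK passed under 8 of 13 alternatives, and under 3 of the 6 that left out an array. It was lost without control replicate 1 (log2 -0.24), control replicate 3 (log2 -0.29) or EPA replicate 2 (log2 -0.25), without the background filter, and with the background subtracted. The authors' deposited table gives this row a ratio of 0.82. The lipase gene Pnpla2 was higher and the gene of its inhibitor lower on the same arrays, both with calls that depend on the setting, while Abhd5 did not pass. This Hilpda row was picked after its values were seen, and a link between these changes was not tested.

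**Figure D2:**
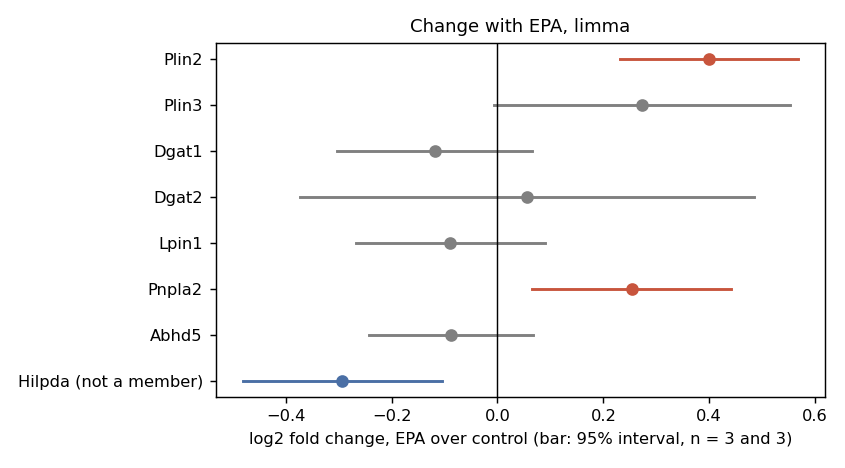
Log2 fold change, EPA over control, of the 7 tested members and of Hilpda, which is not a member. Points are limma estimates, bars 95% intervals with 3 arrays a group, orange is called higher, blue called lower and grey not past the threshold. Plin2 and Pnpla2 lie to the right of 0, Hilpda to the left, and the interval of Dgat2 is the widest, from -0.37 to 0.48.

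The triglyceride-forming enzymes did not pass. Dgat1, an acyltransferase of the endoplasmic reticulum, read 129.7, 142.5 and 122.7 in control cells and 119.6, 128.5 and 115.2 with EPA. The groups overlapped, and the log2 fold change of Dgat1 was -0.12 (95% interval -0.30 to 0.07, limma adjusted p = 0.296). Dgat2, an unrelated acyltransferase with the same reaction that also sits at droplets, read 62.5, 65.1 and 60.9 in control cells and 86.2, 45.0 and 71.8 with EPA. The control arrays agreed closely, but the highest EPA array was 1.91 times the lowest, with EPA replicate 2 below every control and the other two EPA arrays above. The log2 fold change of Dgat2 was 0.06 (SE 0.191, limma adjusted p = 0.848), and a change of 0.77-fold to 1.40-fold lay within its 95% interval. Its direction rested on single arrays. Without EPA replicate 2 it passed as a rise (log2 0.32, limma adjusted p = 0.0404), and without EPA replicate 1 it was -0.14 and did not pass. Lpin1, a phosphatidate phosphatase that also acts as a transcriptional coactivator, read 53.7, 50.4 and 59.1 in control cells and 52.3, 49.4 and 51.4 with EPA. These values overlapped and lay near the background limit, and the log2 fold change of Lpin1 was -0.09 (95% interval -0.27 to 0.09, limma adjusted p = 0.418). Subtracting the background made it -0.19, which also did not pass. The Lpin1 row combines 4 probes, by a rule not given in the sources used here, whereas each of the rows of Plin2, Plin3, Dgat1, Dgat2, Pnpla2 and Abhd5 has 1 probe.

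The later lipases were not measurable. Lipe, best known from adipocytes and steroid-forming cells, read 27.9 to 29.0 in control cells and 30.0 to 34.2 with EPA, all under the limit. Mgll, which also degrades the endocannabinoid 2-arachidonoylglycerol, read 28.6 to 35.8 and 32.2 to 35.1. Each of these rows combines 3 probes. Without the background filter they entered the test and did not pass, with a log2 fold change of 0.17 for LIPE (limma adjusted p = 0.323) and 0.04 for MGLL (limma adjusted p = 0.881), values that say little at this brightness.

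**Figure D3:**
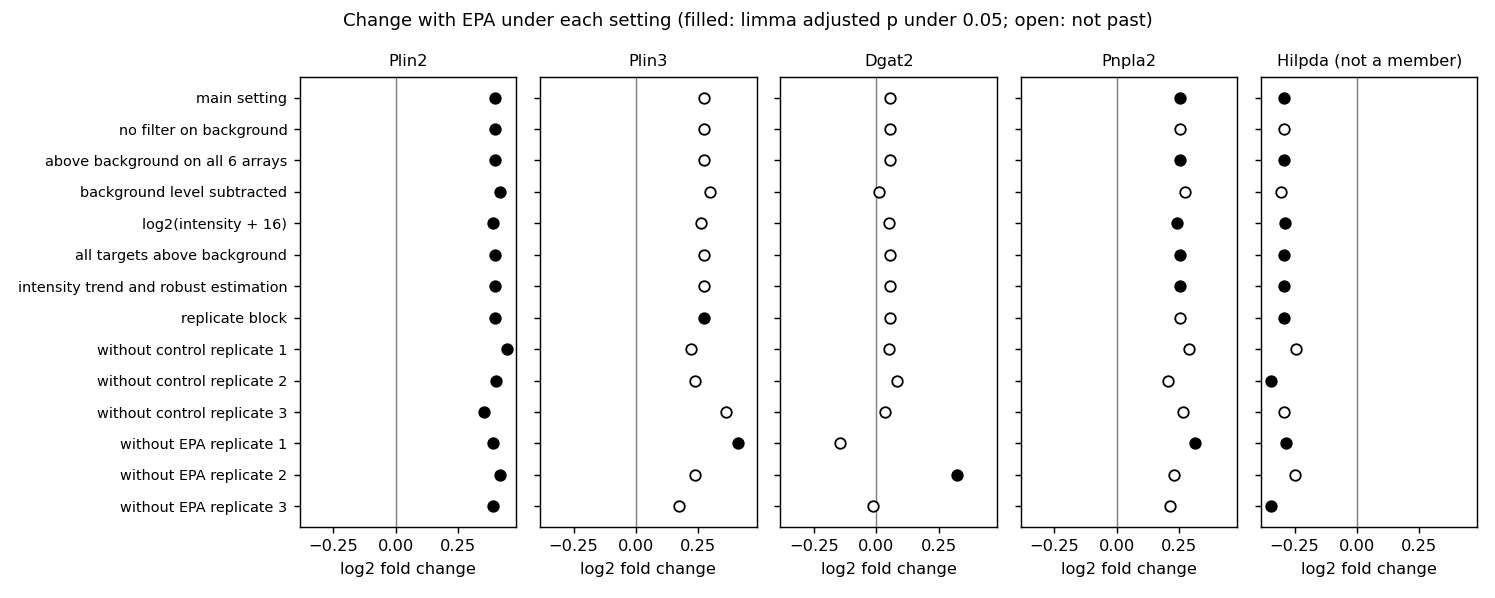
Log2 fold change, EPA over control, of Plin2, Plin3, Dgat2, Pnpla2 and Hilpda in the main setting and all 13 alternatives. Filled points passed a limma adjusted p of 0.05 and open points did not. Plin2 is filled throughout, Pnpla2 under 5 alternatives and Hilpda under 8, while Plin3 is filled without EPA replicate 1 and with a replicate block, and Dgat2 without EPA replicate 2.

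The promoter windows of the genes of both called members are shown because PPAR proteins bind direct repeats of the hexamer AGGTCA. They are the 250 bases before the RefSeq start, 5′ to 3′ on the strand of the gene (GRCm38.p6). The Plin2 window is chr4:86670060-86670309, minus strand, and the Pnpla2 window chr7:141454938-141455187, plus strand. Capitals mark AGGTCA on either strand.
Plin2: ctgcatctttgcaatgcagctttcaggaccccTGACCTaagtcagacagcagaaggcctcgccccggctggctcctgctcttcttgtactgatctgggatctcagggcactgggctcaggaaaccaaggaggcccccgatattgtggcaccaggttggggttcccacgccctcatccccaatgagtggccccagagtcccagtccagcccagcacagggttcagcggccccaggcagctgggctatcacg
Pnpla2: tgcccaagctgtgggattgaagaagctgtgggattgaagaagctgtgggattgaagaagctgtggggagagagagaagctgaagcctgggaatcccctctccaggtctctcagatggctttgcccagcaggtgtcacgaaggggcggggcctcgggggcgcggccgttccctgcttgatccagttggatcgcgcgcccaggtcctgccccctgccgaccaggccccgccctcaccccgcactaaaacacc
The full repeat AGGTCANAGGTCA was in neither window, on either strand, and it is in 0.0335% of 32851 RefSeq promoter windows of that length. The single hexamer occurred once in the Plin2 window, on the opposite strand, with its outer end 218 bases before the start, and not in the Pnpla2 window. It is in 14% of all windows. Of the 9 members, 7 had a window in the table, and those of Lpin1 and Abhd5, which did not pass the test, held 1 hexamer each. The hypoxia-response core ACGTG was in neither printed window. It was in 1 of 2 windows of Lipe, 2 of 2 of Mgll and 1 of 2 of Hilpda, and is in 16.6% of all. A match is a description of letters and not of binding.

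Around the members, 67 further gene names of droplet assembly, triglyceride synthesis, and ester breakdown were looked up. Ubxd8 and Faf2 among them name the same gene. Of the 67, 61 had a row, and 39 were above background in at least 1 group, 38 of them on all 6 arrays. Of these 39, 18 rose and 2 fell (46.2% and 5.13%), with 19 not past the threshold, against 18.4% and 15.6% over all genes tested. The median log2 fold change was 0.19. Without Daglb, whose rows passed in opposite directions, 17 of 38 rose and 2 fell (44.7% and 5.26%). These lists were drawn up with earlier results of these data known, so the counts are a description.

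In droplet coats and assembly, 6 of 10 rose, 0 fell and 4 did not pass (median log2 0.31). Cav1, the caveolar scaffold that also reaches droplets, rose from 2151 ± 18.6 to 3704 ± 87.4 (log2 0.78, SE 0.067, limma adjusted p = 5.07e-05). Hsd17b11, a short-chain dehydrogenase that is targeted to droplets, rose from 52.3 ± 5.52 to 79.7 ± 4.10 (log2 0.61, or 1.12 with the background subtracted). Pcyt1a, which controls phosphatidylcholine synthesis and binds growing droplets, rose 1.33-fold, a call lost without the filter and with the background subtracted. The call of Pcyt1a was also lost without control replicate 2 (log2 0.35), control replicate 3 (log2 0.36) or EPA replicate 2 (log2 0.30). The other 3 that rose had log2 fold changes from 0.28 to 0.41.

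In triglyceride synthesis, 7 of 17 rose, 1 fell and 9 did not pass (median log2 0.19). The list is broad and also holds the lipid phosphate phosphatase genes, all called higher, and Pcyt2. Gpat3, Gpat4, Agpat1, Agpat2, Agpat5 and Lpin2 were among those not past. Agpat3 and Agpat4 rose, with calls that depend on the setting. The lipid phosphate phosphatase genes Plpp3 and Plpp1, whose products remove phosphate from phosphatidate and related lipids, rose 1.83-fold and 1.41-fold. Plpp3 went from 267.3 ± 41.6 to 485.6 ± 6.31 (limma adjusted p = 0.000273). Acsl3, the acyl-CoA synthetase of nascent droplets, rose 1.38-fold, from 138.5 ± 6.27 to 191.6 ± 24.8, a call lost without the background filter. The gene that fell was Pcyt2, which controls phosphatidylethanolamine synthesis from ethanolamine, a pathway that uses diacylglycerol in a later step. Pcyt2 went from 418.4 ± 19.9 to 264.3 ± 7.42 (log2 -0.66, SE 0.0721, limma adjusted p = 0.000158). Its 3 EPA arrays lay below all controls, as for 22.7% of genes tested.

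In ester breakdown and its regulators, 5 of 12 rose, 1 fell and 6 did not pass (median log2 0.10), or 4 of 11 rose without Daglb (median log2 0.05). The genes that rose include Soat1 (log2 0.37), named here after its value was seen, which forms cholesterol esters and does not break them down. Nceh1, a neutral cholesterol ester hydrolase, rose from 558.4 ± 64.4 to 1036 ± 58.6 (log2 0.90, SE 0.0966, limma adjusted p = 0.000148). Abhd12, a lipase of monoacylglycerol and lysophospholipids, rose 1.42-fold. Daglb, a diacylglycerol lipase, rose 1.35-fold on the brighter of its rows, but its dimmer row fell (log2 -0.50, limma adjusted p = 0.0352 in a fit with all rows). The means of the dimmer row were 45.6 in control and 32.4 with EPA, the latter under the background limit. That row passed the filter only through the control group, which favours a fall, and the direction of Daglb is not settled. Ddhd2, a phospholipase and triglyceride hydrolase known from neurons, fell from 288.2 ± 15.4 to 219.2 ± 12.4 (log2 -0.39, limma adjusted p = 0.00383).

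**Figure D4:**
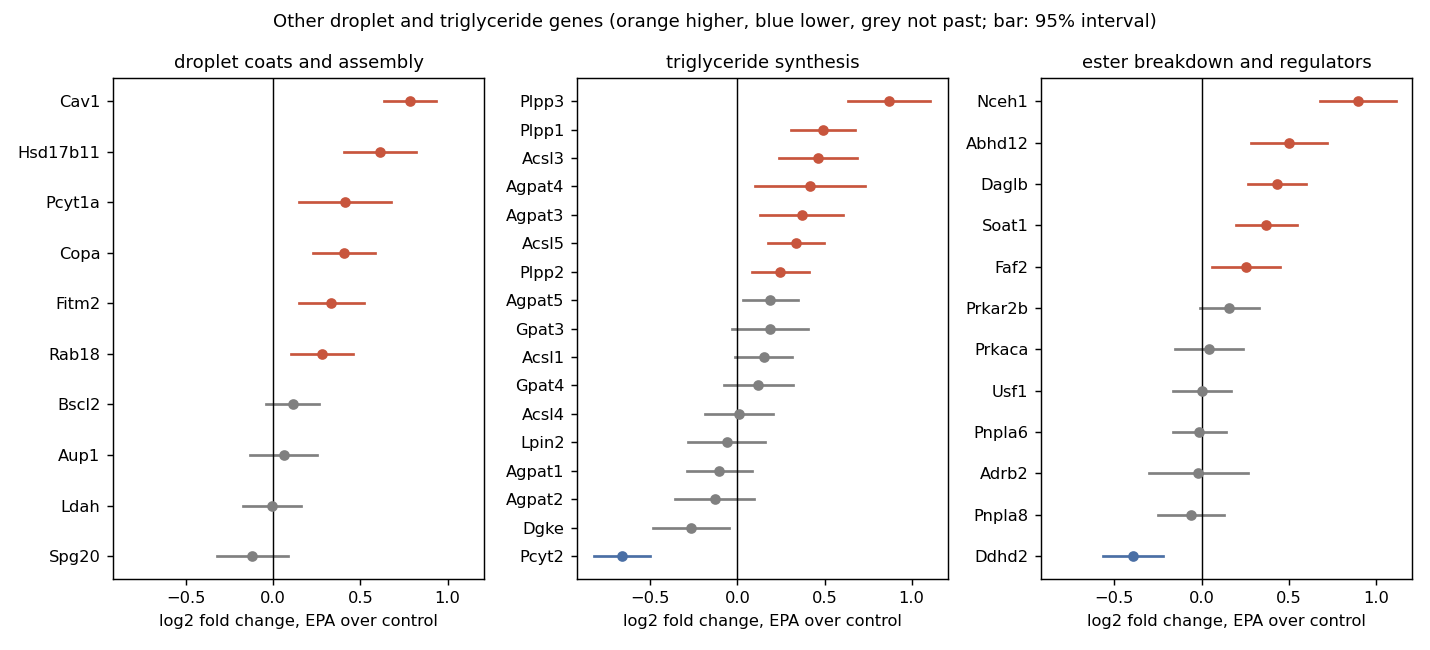
Log2 fold change, EPA over control, of the 39 measured genes around the members, in 3 panels by list, with limma 95% intervals (3 arrays a group). Orange genes were called higher, blue lower, and grey did not pass. The 18 orange points lie right of 0, and Pcyt2 and Ddhd2 are the 2 blue points on the left.

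The arrays were also read for cell type markers, both epithelial and intestinal ones, given the colorectal origin of the line, and those of other cells. Of 12 epithelial and intestinal markers 2 (Krt8 and Lgals4) lay above background on all 6 arrays, 5 (Epcam, Krt19, Vil1, Cldn4 and Muc2) on none, and the other 5 on some. Of 8 adipocyte markers, Lep alone lay above background on all 6 arrays, Plin1, Cidec, Fabp4, Pparg and Retn on none, and the summed intensity was 244 to 271 in control and 239 to 278 in EPA arrays. Of 9 macrophage markers, Cd14 and Cd68 were above background on all arrays, and neither passed the test. Adgre1, Itgam, Fcgr1, Mrc1 and Ptprc were above background on none. Of 10 fibroblast and endothelial markers, Dcn, Pdgfra and Pdgfrb were above background on all 6 arrays, and all 3 rose, while Lum, Thy1, Pecam1, Cdh5, Kdr and Tie1 were on none. The summed intensity of that list was 619 to 665 in control and 1061 to 1085 in EPA arrays. Dcn alone went from a mean of 262.7 to 551.1. Col1a1, the remaining gene of the list, did not pass (log2 0.22, limma adjusted p = 0.24), so the sum does not stand for the whole list. The sum was higher on the EPA arrays, as were Plin2, Pnpla2 and Cav1, and a link between them was not tested.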

How the data were processed

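The values analysed were the deposited intensity values of the series table, linear and above 0, with array medians of 35.2 on all 6 arrays and sorted values that differed by at most 0.465%, the mark of quantile normalisation. Other exports name quantile normalisation, GenomeStudio 1.7.0 and MouseWG-6 v2 content, per the file headers. The sources used here do not state how probes were combined or whether background was corrected. The authors' deposited comparison table gives a ratio, its log2 value and an unadjusted p-value of an unstated test. The probe list served only to count probes, by probe identifiers deposited by the authors. In other tables, 102 columns of per-array values carry numbers that match no label and were not used.

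Rows were named through RefSeq GRCm38.p6 (16218 by symbol, 5703 by 1 synonym, 117 with several symbols and 8790 with none, both left out). Background was the mode of the dim intensities (28.05) plus the one-sided 0.05 level of the spread below it (SD 6.924), and 11807 rows exceeded the limit on all 3 arrays of a group. The brightest row stood for each gene, a member's row always for its own. Log2 values were tested in R 4.3.3 with limma 3.58.1 (lmFit, eBayes, two-sided, Benjamini-Hochberg over 9274 genes), a fit checked on simulated data. Folds are ratios of geometric means and understate dim genes. The number of arrays limits the precision. Members, lists and alternatives were chosen with earlier results of these data known. Every member is named, and of each list the 3 largest called changes in each direction. Agpat3, Agpat4, Soat1 and some genes that did not pass are named outside this rule. The Hilpda row was named after its values were seen.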

Additional observations from a re-analysis of the deposited data

How the results depend on the processing

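Plin2 kept its direction and call under every one of the 13 alternatives. Without the background filter, 1313 of 19964 genes tested were called (731 higher, 582 lower). In that setting 1 of 9 members and 8 of 61 further genes were higher. With the background level subtracted, 1 member was higher, and the cause was not tested. Leaving out 1 array at a time gave 1 to 3 members called higher, 12 to 16 further genes higher and 2377 to 2955 genes called in all. The 1 member still called without control replicate 1, 2 or 3, or without EPA replicate 3, was Plin2. The log2 fold change of Dgat2 ran from -0.14 to 0.32 over these, turning negative without EPA replicate 1 (-0.14) and without EPA replicate 3 (-0.01). Leaving out Daglb, chosen after seeing the data, gave 17 further genes higher and 2 lower. Of the 20 further genes called, 10 stayed called under all alternatives and 0 reversed. Replicate numbers are shared between groups, but deviations of same-numbered arrays correlated at -0.036, -0.188 and 0.110, so they were not taken as pairs. A replicate block gave 2925 genes called, 2 members higher (Plin2 and Plin3, with Pnpla2 not past), and 17 further genes higher and 3 lower. Signal over background limits Lpin1, Dgat2, Lipe and Mgll.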
